A study of Mus musculus with 2 samples.

Results

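Chemokines are small secreted proteins that attract leukocytes by binding receptors coupled to G proteins on their surface. In the spleen, homeostatic chemokines made by stromal cells keep B cells in follicles and T cells in their own zone, whereas inflammatory chemokines are induced at sites of injury or infection. Atypical receptors bind chemokines without the usual signalling and so remove or redistribute them. The genes described here are 43 mouse chemokine genes, of which 31 are listed as ligands and 12 as receptors. They are a set list of symbols, put together with earlier results of these data known, and the list leaves out chemokine receptors such as Ccr2, Ccr3, Ccr7, Cxcr2, Cxcr5 and Xcr1, which are described beside their ligands. A probe was matched through its transcript accession for 41 of them, among 20649 named genes with a probe in all, and each gene is given by its brightest probe.

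The study treated mouse spleens with silica (SiO2), after which the labels call the organ remodelled, or with phosphate-buffered saline (PBS) as control. The SiO2 group is 1 array of RNA pooled from 5 SiO2-remodelled spleens, and the PBS group is 1 array of RNA pooled from 5 PBS-treated spleens. Both pools came from female mice and were taken on day 19 after the first injection, and the sources used here give no strain, age or dose. There were no replicates, so no p-value or standard deviation between animals can be given, and a difference is described by a fixed size of 2-fold (1 on the log2 scale). The RNA kit named in the labels is made for blood and lyses red and white cells differently, and globin message was reduced. In these pooled tissue samples, fewer cells of a type and less RNA per cell cannot be told apart.

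The relative signal of a probe is its background-subtracted intensity divided by the 75th percentile of that array, and every difference is given as log2, SiO2 minus PBS. Of the 43 genes, 38 had a probe well above background, in each case on both arrays. Cxcl2, Cxcl3 and Ccl20 had probes that were not well above background on either array, and no probe could be matched to Ccl21a or Cxcl11. The RefSeq annotation used here lists Cxcl11 as a transcribed pseudogene. The error printed after ± is the error that the scanner software gives for the spot signals, carried to the log2 difference. It ranged from 0.065 to 0.39 over the 38 genes, with a median of 0.20, and it covers the reading of the spots and not animals, pools or labelling. Ccl2 was the only member with repeated spots, and over its 10 spots the log2 difference was -0.81 with a spread between spots of 0.071 (SD). Of the lymphocyte markers, 9 of 9 for B cells and 9 of 10 for T cells were above background, all but Trac. Since 16774 of the 20649 named genes with a probe were also above background, these counts do not check the label spleen.

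Of the 38 genes, 9 differed by 2-fold or more between the pools, where 10.3% of all 16774 named genes above background did. In the SiO2 pool 4 of them were higher, where 6.62% of all genes were higher by that much, and 5 were lower, where 3.69% of all genes were. The higher genes were Ccl8, Ackr1, Ccl11 and Ccl9, and the lower genes were Cxcl10, Ccl24, Xcl1, Ccl12 and Cxcl13. The median log2 difference was -0.17 over the 38 genes and 0.03 over all genes above background. The split between directions depends on the scaling. The median over the lymphocyte markers was -0.31, and with the SiO2 array shifted to bring it to 0, 9 chemokine genes were higher by 2-fold or more and 3 were lower. Of all 16774 genes, 2090 were then higher and 301 lower by that much, in place of 1110 and 619. The 5 chemokine genes that then joined the higher side were Cxcr4, Ccl22, Ccr10, Ccl7 and Ackr4, and Ccl12 and Cxcl13 then lay within 2-fold.

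**Figure D1:**
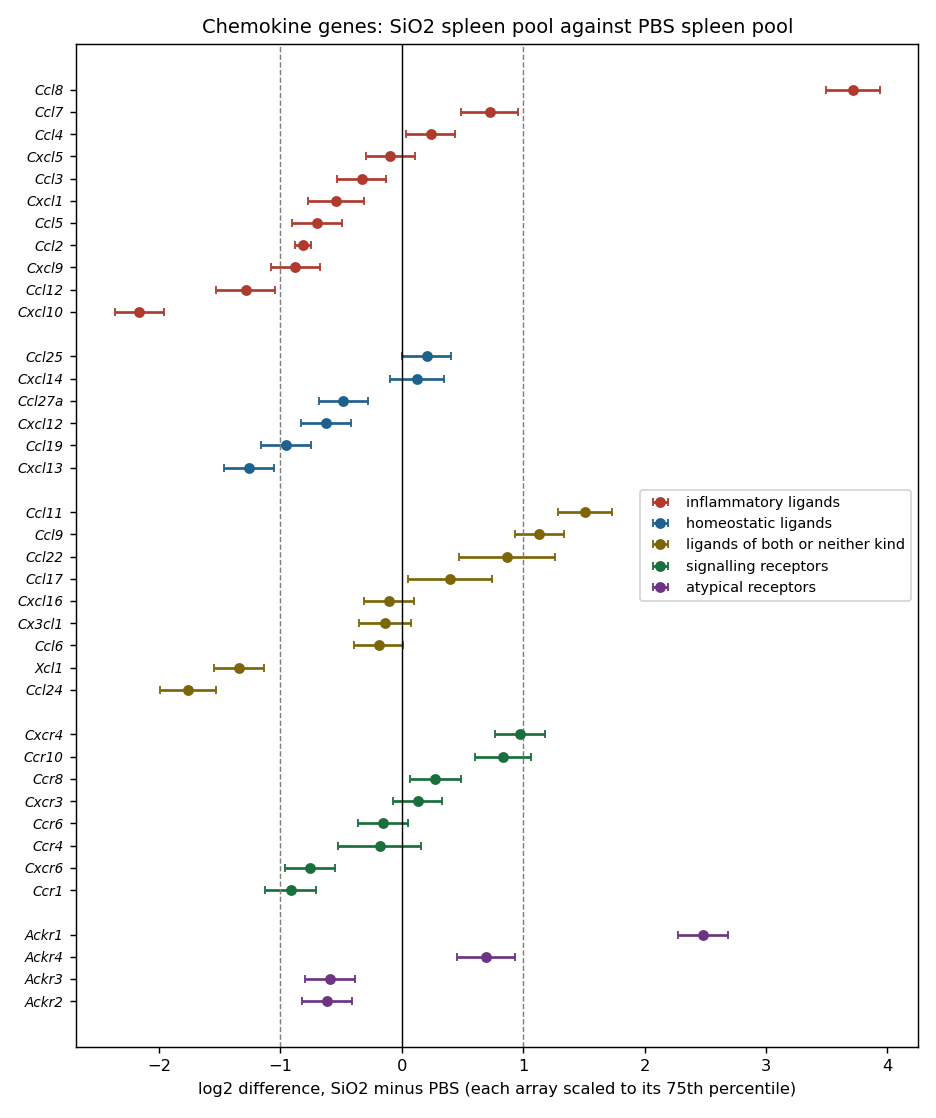
Log2 difference of each of the 38 measured chemokine genes, SiO2 pool minus PBS pool, grouped by role. Points are the brightest probe of a gene, bars the scanner software's error, and dashed lines mark 2-fold. Ccl8 (3.72) and Ackr1 (2.48) lie farthest to the higher side and Cxcl10 (-2.16) farthest to the lower side.

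The promoters of 5 genes on which the results turn are shown first, as the 250 bases before the transcription start, 5′ to 3′ on the gene's strand, from RefSeq on build GRCm38.p6. Cxcl10 and Cxcl9 encode ligands of the same receptor, Ccl8 and Ccl12 are direct neighbours that differed in opposite directions, and Ackr1 had the largest difference among the 12 receptor genes. Capitals mark matches on either strand to an interferon-stimulated response element (GAAA, any 2 bases, GAAA) and to an NF-kB motif (GGG, any 3 bases, TTCC). No match to one overlaps a match to the other in these windows, and a match is a description of the sequence only.
Cxcl10 (chr5:92348890-92349139, minus strand): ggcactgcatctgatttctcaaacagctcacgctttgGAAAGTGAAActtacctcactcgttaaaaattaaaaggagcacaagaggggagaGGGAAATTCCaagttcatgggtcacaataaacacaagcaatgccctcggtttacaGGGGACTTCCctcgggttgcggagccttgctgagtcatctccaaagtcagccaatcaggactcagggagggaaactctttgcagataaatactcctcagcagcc
Cxcl9 (chr5:92328080-92328329, minus strand): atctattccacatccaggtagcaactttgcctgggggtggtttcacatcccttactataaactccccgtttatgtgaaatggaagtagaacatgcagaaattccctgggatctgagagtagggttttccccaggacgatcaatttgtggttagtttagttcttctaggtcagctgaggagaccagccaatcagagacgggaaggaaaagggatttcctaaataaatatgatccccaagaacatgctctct
Ccl8 (chr11:82114935-82115184, plus strand): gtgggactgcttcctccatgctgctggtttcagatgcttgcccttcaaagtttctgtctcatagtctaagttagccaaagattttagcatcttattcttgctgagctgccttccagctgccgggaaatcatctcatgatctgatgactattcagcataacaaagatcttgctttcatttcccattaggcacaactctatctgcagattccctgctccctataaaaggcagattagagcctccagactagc
Ccl12 (chr11:82101595-82101844, plus strand): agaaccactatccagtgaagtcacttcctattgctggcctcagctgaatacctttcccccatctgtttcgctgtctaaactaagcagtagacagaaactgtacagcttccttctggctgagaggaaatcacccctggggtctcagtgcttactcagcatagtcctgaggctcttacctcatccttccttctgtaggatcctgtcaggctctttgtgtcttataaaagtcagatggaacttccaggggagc
Ackr1 (chr1:173333504-173333753, minus strand): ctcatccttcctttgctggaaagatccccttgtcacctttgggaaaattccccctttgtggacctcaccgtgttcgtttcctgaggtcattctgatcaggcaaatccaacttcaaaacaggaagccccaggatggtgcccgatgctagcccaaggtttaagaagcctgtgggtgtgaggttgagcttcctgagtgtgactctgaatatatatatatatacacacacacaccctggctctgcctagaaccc

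The Cxcl10 promoter held 1 match to the interferon-stimulated response element, 213 to 204 bases before the start, and 2 matches to the NF-kB motif, 159 to 150 and 104 to 95 bases before it. The windows of Cxcl9, Ccl8, Ccl12 and Ackr1 held neither set of letters in these forms. RefSeq promoters were found for 33 of the 43 genes, 37 promoters in all. The interferon-stimulated response element was in 3 of these, those of Cxcl10, Ccl19 and Cxcl14, and in 2.98% of all 32851 promoters. The NF-kB motif in this form was in 7 of them and in 4.65% of all promoters. The form was chosen after 2 others had been counted on these promoters: a looser one (GGG, any 5 bases, CC) was in 19 of the 37 and in 45.8% of all, and a stricter one (GGGA, any base, TTTCC) in 3 of the 37 and in 0.356% of all. The looser form includes every match of the NF-kB form shown, and it also matches the Cxcl9 window. The count of chemokine promoters with an NF-kB motif therefore depends on the letters chosen, and nothing is read from it. Cxcl1, Cxcl2 and Cxcl3, the neutrophil attractants that lie close together on chromosome 5, were among the 7 and were the 3 with the stricter form, and of these Cxcl2 and Cxcl3 had no signal above background here. A gamma-activated sequence (TTC, any 3 bases, GAA) was in 3 of the 37 promoters and in 7.02% of all, and a GATA motif (AGATAA) in 5 of the 37 and in 9.99% of all. The other patterns searched were STAT6 (TTC, any 4 bases, GAA), in 1 of the 37 and 5.85% of all, PU.1 (GAGG followed by AAGT), in 1 and 2.44%, AP-1 (TGA, any base, TCA), in 4 and 6.75%, RBPJ (GTGG followed by GAA), in 0 and 5.42%, and C/EBP (TTGC followed by GCAA), in 0 and 0.164%.

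Among the inflammatory ligands, Ccl8, which attracts monocytes and, through Ccr8 in the mouse, some T helper cells, had the largest difference of the 38 genes. Its relative signal was 0.580 in the SiO2 pool, against 0.0441 in the PBS pool. It was 13.2-fold higher (log2 3.72 ± 0.22), and between 2.20 and 4.03 on the log2 scale under the 5 alternative ways of processing that could change its value. Its PBS signal before scaling was 29.5, above the lowest signal of 7.37 that was called well above background on that array. Genes of lipid-laden phagocytes, which process ingested material, had 6 of 8 members at least 2-fold higher, with summed relative signals of 35.4 in the SiO2 pool and 23.2 in the PBS pool. The largest part of both sums was Cd9, which was at 0.05 ± 0.20. Fibroblast genes had 5 of 8 at least 2-fold higher, with sums of 93.0 in SiO2 and 44.1 in PBS. The other 3 were within 2-fold, and of these Dcn lay below 0 at -0.86 ± 0.20. Other phagocyte markers lay the other way from those of lipid-laden phagocytes. Of 6 measured macrophage and monocyte markers 5 lay below 0, with a median of -0.48 and sums of 21.1 in SiO2 and 36.3 in PBS, and the Fc receptor Fcgr1 was 4.04-fold lower. All 7 red pulp macrophage markers lay below 0, with a median of -0.50 and sums of 48.9 in SiO2 and 73.3 in PBS, and their transcription factor Spic was 2.80-fold lower. The part of these cells in the Ccl8 value was not tested.

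Cxcl10, an attractant of activated T and natural killer (NK) cells that interferons induce, was at the other end of the 38 genes. Its relative signal was 2.41 in the SiO2 pool and 10.8 in the PBS pool, so it was 4.47-fold lower (log2 -2.16 ± 0.20), and between -2.21 and -1.85 under the same 5 alternatives. Cxcl9, the related ligand induced by interferon gamma, had 0.930 in the SiO2 pool and 1.71 in the PBS pool. Its log2 difference of -0.88 ± 0.20 was within 2-fold, and its other probe gave -0.39. Their shared receptor Cxcr3 was at 1.85 in the SiO2 pool and 1.69 in the PBS pool (log2 0.13 ± 0.20), a difference smaller than its error. Both ligands thus lay below 0, and the receptor within its error of 0.

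Of 15 genes of the interferon-gamma response, 11 were lower by 2-fold or more and none was higher by that much, with a median of -1.66 and summed relative signals of 50.1 in the SiO2 pool and 127 in the PBS pool. The GTPases Gbp4 and Iigp1 were 5.28-fold and 4.63-fold lower and the signalling inhibitor Socs1 4.57-fold lower. All 15 were above background on both arrays. The part of interferon signalling in the Cxcl10 value was not tested.

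The monocyte attractants differed among themselves. Ccl12, a ligand of Ccr2 found in the mouse, had a relative signal of 0.0328 in the SiO2 pool and 0.0800 in the PBS pool and was 2.44-fold lower (log2 -1.29 ± 0.25). Its signals before scaling were 15.4 in SiO2 and 53.6 in PBS, and with normexp background correction the log2 difference was -0.21. Ccl2, the main ligand of Ccr2, was at 0.323 in the SiO2 pool and 0.568 in the PBS pool, within 2-fold at -0.81. Ccl7, which binds Ccr1 and Ccr2, lay on the other side at 0.72 ± 0.23, with 0.0662 in SiO2 and 0.0401 in PBS. Ccr2 itself, the receptor of inflammatory monocytes, had a log2 difference of -0.78 ± 0.20.

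The remaining inflammatory ligands were within 2-fold. Ccl5, made by T and NK cells, had 6.05 in the SiO2 pool and 9.81 in the PBS pool (log2 -0.70 ± 0.20). Ccl3 and Ccl4, made by activated macrophages and lymphocytes, were at -0.33 ± 0.20 and 0.24 ± 0.20. Their signals were far apart, at 0.447 in SiO2 and 0.563 in PBS for Ccl3 and 42.1 in SiO2 and 35.7 in PBS for Ccl4. These are signals of different probes, so they do not measure how much of each transcript was present relative to the other. The neutrophil attractant Cxcl1 was at -0.54 ± 0.23, or 0.12 with normexp, and Cxcl5 was at -0.09 ± 0.20. Their receptor Cxcr2 was at -0.80 ± 0.21. Of 9 measured neutrophil genes, 5 were at least 2-fold higher, led by the granule proteins Ngp (8.77-fold) and Ltf (7.80-fold). The other 4 were above 0 but within 2-fold, down to 0.13. The part of neutrophils in the Cxcr2 value was not tested. Over the 11 inflammatory ligands measured, 1 was at least 2-fold higher, 2 at least 2-fold lower and 8 within 2-fold, with a median of -0.54. With normexp that median was -0.15. In the main setting 6.62% of all genes above background were higher and 3.69% lower by 2-fold or more.

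**Figure D2:**
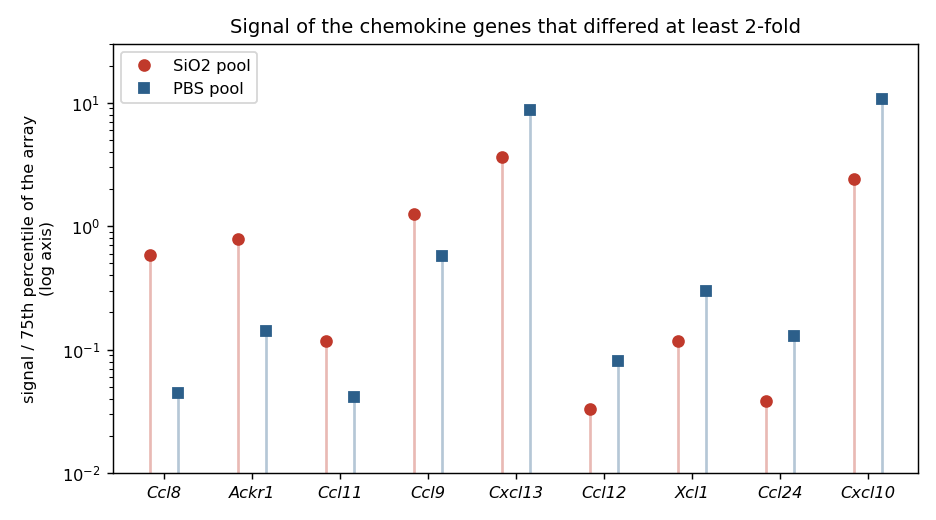
Relative signal (intensity divided by the 75th percentile of the array, log axis) of the 9 chemokine genes that differed at least 2-fold, with the SiO2 pool as red circles and the PBS pool as blue squares. There is 1 array per pool and therefore no error between animals. Ccl8 stands at 0.580 in SiO2 and 0.0441 in PBS, Cxcl10 at 2.41 in SiO2 and 10.8 in PBS.

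Of the 6 homeostatic ligands measured, Cxcl13 was lower by 2-fold or more and 5 were within 2-fold, 2 of them above 0. Among all genes above background, 3.69% were lower by that much. Cxcl13, the stromal chemokine that draws B cells into follicles, had a relative signal of 3.66 in the SiO2 pool and 8.76 in the PBS pool. It was 2.39-fold lower (log2 -1.26 ± 0.20), or -0.95 with the B and T cell markers set to a median of 0. Its receptor Cxcr5, on follicular B and T cells, was at -0.54 ± 0.20. The 9 B cell markers had a median of -0.50 with none differing 2-fold, and summed relative signals of 66.5 in the SiO2 pool and 91.8 in the PBS pool. Markers of follicular and reticular stroma, without the chemokines on that list, had 5 of 7 below 0 and none beyond 2-fold, with a median of -0.50 and sums of 50.3 in the SiO2 pool and 66.2 in the PBS pool. Most of both sums was the signal of Clu (log2 -0.38 ± 0.20). The part of B cell or stromal cell numbers in the Cxcl13 value was not tested.

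Ccl19, which guides T cells and dendritic cells into the T zone through Ccr7, was at 1.07 in the SiO2 pool and 2.07 in the PBS pool. Its log2 difference was -0.95 ± 0.20 and its other probes gave -0.73 and -0.23. The RefSeq table lists several Ccl19 pseudogenes and a second Ccl27 gene, Ccl27b, so that the probes of Ccl19 and Ccl27a may also bind copies. Ccr7 was at -0.78 ± 0.20, and Ackr4, the atypical receptor that removes Ccl19, Ccl21 and Ccl25, at 0.69 ± 0.24. In the main setting the ligand and its signalling receptor were thus lower, and the scavenger was higher, all within 2-fold. Ackr4 was dim, with signals before scaling of 25.8 in SiO2 and 22.7 in PBS, and was at 0.48 with normexp. In the authors' deposited table Ccl19 was at -0.29.

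Cxcl12, which holds blood progenitors and plasma cells in their niches, had 4.50 in the SiO2 pool and 6.93 in the PBS pool (log2 -0.62 ± 0.20), and its other probe gave -0.75. Its receptor Cxcr4 had 1.23 in the SiO2 pool and 0.625 in the PBS pool, a log2 difference of 0.98 ± 0.20 that lay just inside 2-fold. Its atypical receptor Ackr3, which removes Cxcl12, was at -0.59 ± 0.20. Among Cxcl12 and its receptors, only Cxcr4 was on the higher side.

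The other homeostatic ligands were Ccl27a, a skin chemokine (-0.48 ± 0.20, with other probes at -0.40 and 0.50), Ccl25, a chemokine of thymus and gut (0.20 ± 0.20, with its other probe at 0.43), and Cxcl14 (0.13 ± 0.22). The homeostatic and the inflammatory ligands had medians of -0.55 and -0.54. These were -0.51 and -0.15 with normexp and -0.59 and -0.63 with quantile normalization, so which median was lower depends on the setting. In the authors' deposited table the medians were -0.41 and -0.75, but it lacked Ccl3, Ccl5, Ccl7 and Cxcl14 and had Ccl19 at -0.29. The spread was wider among the inflammatory ones, from -2.16 to 3.72, against -1.26 to 0.20 among the homeostatic ones. The ranges rest on 11 and 6 genes in 1 pair of arrays, so no test was made. By structure, 7 of 8 CXC ligands lay below 0, while CC ligands were spread evenly, with 8 of 16 above 0. In the same arrays 8006 of 16774 genes lay below 0, and with B and T cell markers at 0 Cxcl5 (0.22) and Cxcl16 (0.20) were above 0, as Cxcl1 (0.12) was with normexp.

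The eosinophil attractants Ccl11 and Ccl24 differed in opposite directions although both bind Ccr3. Ccl11 had a relative signal of 0.118 in the SiO2 pool and 0.0414 in the PBS pool and was 2.84-fold higher (log2 1.51 ± 0.22). Ccl24 had 0.0383 in the SiO2 pool and 0.130 in the PBS pool and was 3.39-fold lower (log2 -1.76 ± 0.23). Both are dim genes, and with normexp they were at 0.88 and -0.54, within 2-fold in the same directions. Ccr3 was 2.02-fold lower. Of 6 measured genes of eosinophils and basophils, 3 were at least 2-fold higher and none at least 2-fold lower, among them the granule genes Epx (6.77-fold) and Prg2 (5.43-fold). The related granule gene Prg3, named after its value was seen, lay on the other side at -0.74 ± 0.21. Their summed relative signals were 2.07 in the SiO2 pool and 0.875 in the PBS pool, and their part in the Ccl11 value was not tested.

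Ccl9, a macrophage chemokine of rodents that binds Ccr1, had 1.27 in the SiO2 pool and 0.577 in the PBS pool and was 2.19-fold higher (log2 1.13 ± 0.20). It was at 0.999 with normexp, on the edge of 2-fold. The macrophage and monocyte markers and the red pulp macrophage markers given above had medians of -0.48 and -0.50, on the other side of 0 from Ccl9. The genes of lipid-laden phagocytes lay on its side, with 8 of 8 above 0 and a median of 2.05. The part of any of these cells in the Ccl9 value was not tested. Ccl6, the close relative and neighbour of Ccl9, was at -0.19 ± 0.20. Ccr1, a receptor of monocytes and neutrophils that both ligands share, was at 0.117 in the SiO2 pool and 0.220 in the PBS pool (log2 -0.91 ± 0.21). Of its 5 ligands, Ccl7 and Ccl9 lay above 0 and Ccl3, Ccl5 and Ccl6 below it, and with B and T cell markers at 0 Ccl6 was at 0.12.

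Xcl1, made by NK cells and CD8 T cells, and its receptor Xcr1, on cross-presenting dendritic cells, were both lower. Xcl1 had a relative signal of 0.118 in the SiO2 pool and 0.299 in the PBS pool and was 2.53-fold lower (log2 -1.34 ± 0.21), or -0.72 with normexp. Xcr1 was 7.75-fold lower (log2 -2.95 ± 0.21), or -2.02 with normexp, with signals before scaling of 47.0 in SiO2 and 520 in PBS. Of 9 NK cell markers, 7 were lower by 2-fold or more and none was higher by that much, with summed relative signals of 5.39 in the SiO2 pool and 20.4 in the PBS pool. The T cell markers had a median of -0.23 with none of 9 differing 2-fold. Of 6 dendritic cell markers other than Xcr1, 2 were lower by 2-fold or more, Clec9a (5.25-fold) and Batf3 (2.14-fold), which mark the cross-presenting kind, and 2 lay above 0. The median of the 6 was -0.50, with sums of 50.5 in the SiO2 pool and 53.2 in the PBS pool. Most of both sums was the signal of Siglech (log2 0.02 ± 0.20), so they say little about the cross-presenting kind. Before scaling, Siglech had 21691 in SiO2 and 30561 in PBS, and Clec9a 142 in SiO2 and 1064 in PBS. The part of NK cell numbers in the Xcl1 value, and of dendritic cell numbers in the Xcr1 value, was not tested.

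The Ccr4 ligands Ccl17 and Ccl22, made by dendritic cells, were near background in both pools. Ccl22 had signals before scaling of 10.98 in SiO2 and 8.58 in PBS and a log2 difference of 0.87 ± 0.39. Ccl17 had 9.60 in SiO2 and 10.4 in PBS (log2 0.40 ± 0.34), and Ccr4, on regulatory and type 2 helper T cells, 8.17 in SiO2 and 13.2 in PBS (-0.18 ± 0.34, or 0.32 with normexp). At these signals the error of a log2 difference is the largest among the 38 genes. The transmembrane ligands Cxcl16 (-0.11 ± 0.20) and Cx3cl1 (-0.14 ± 0.21) differed by less than their error. Cxcr6, the receptor of Cxcl16 on T and NK cells, was at -0.76 ± 0.20, and its other probe gave -0.71.

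**Figure D3:**
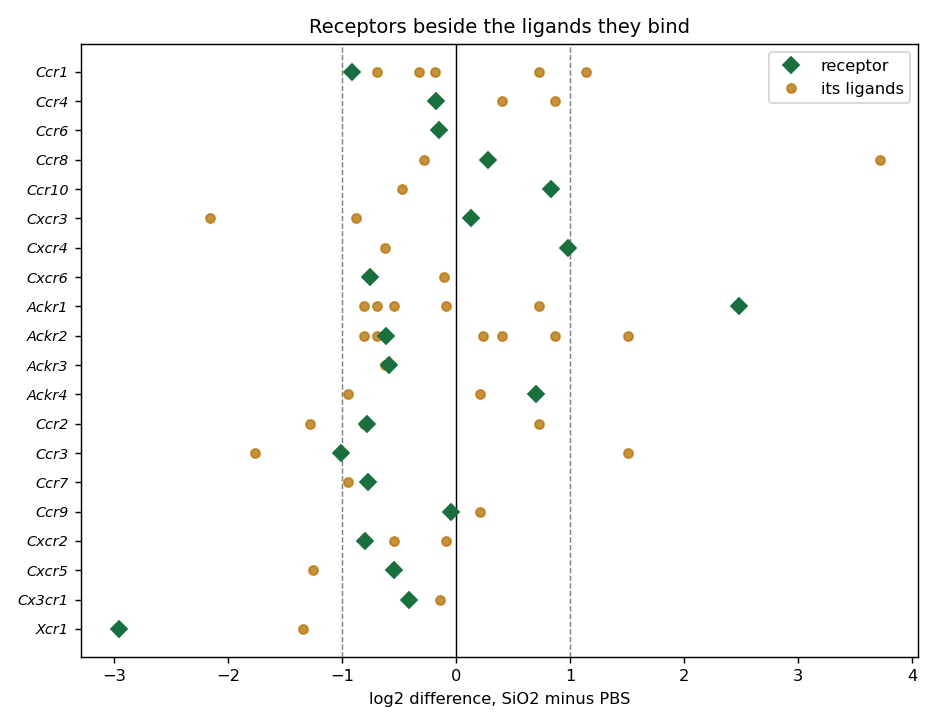
Log2 difference (SiO2 pool minus PBS pool) of each receptor as a green diamond, with the measured ligands it binds as orange circles on the same line; dashed lines mark 2-fold. Ackr1 (2.48) and Xcr1 (-2.95) are the receptors farthest from 0, and Ccr3 (-1.02) has 1 ligand beyond 2-fold on each side.

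Ackr1 had the largest difference among the 12 receptors. It is an atypical receptor of venular endothelium and erythroid cells that binds many inflammatory CC and CXC chemokines. Its relative signal was 0.785 in the SiO2 pool and 0.141 in the PBS pool, 5.58-fold higher (log2 2.48 ± 0.21), and between 1.98 and 2.79 under the alternatives. All 8 erythroid markers were at least 2-fold higher, from Slc4a1, the anion exchanger of red cells (3.08-fold), to the membrane protein Epb42 (6.08-fold), with summed relative signals of 140 in the SiO2 pool and 40.7 in the PBS pool. Of 8 endothelial markers none differed 2-fold, with a median of -0.14 and sums of 20.1 in the SiO2 pool and 25.7 in the PBS pool. The part of erythroid cells in the Ackr1 value was not tested. Of 5 ligands listed for Ackr1, Ccl2, Ccl5, Cxcl1 and Cxcl5 lay below 0 and Ccl7 above it.

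The other atypical receptors were within 2-fold. Ackr2, a scavenger of inflammatory CC chemokines on lymphatic endothelium, had 0.532 in the SiO2 pool and 0.816 in the PBS pool (log2 -0.62 ± 0.20). None of the 8 signalling receptors differed 2-fold, and 4 lay above 0 and 4 below it. Since 10.3% of all genes above background differed by that much, nothing is read from this count. Ccr6, the receptor of Ccl20 on B cells and T helper cells, was at -0.16 ± 0.20, and Ccr8 at 0.28 ± 0.21 although its ligand Ccl8 was 13.2-fold higher. Ccr10, a receptor of plasma cells and skin T cells, was at 0.83 ± 0.23. Of 10 further chemokine receptors that are not among the 43 genes, Xcr1 and Ccr3 were lower by 2-fold or more, where 3.69% of all genes were. None was higher by that much, and the median was -0.66.

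Over 40 pairs of a receptor and a ligand that were both measured, 19 had differences of the same sign and 3 had both differences beyond 2-fold. The 3 were Xcr1 with Xcl1 and Ccr3 with Ccl24, where both were lower, and Ccr3 with Ccl11, where they were opposite. The count of 3 depends on the setting. Ccr3 was at -1.02 ± 0.20, with normexp no pair had both differences beyond 2-fold, and with B and T cell markers at 0 Ccr3 was at -0.71 and the pairs were Xcr1 with Xcl1 and Ackr1 with Ccl7. Pairs share members, since a ligand can bind several receptors, and the count is a description.

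Of the CC ligand genes, 10 lie in 2 groups on chromosome 11 in the RefSeq annotation. In the first, Ccl2, Ccl7, Ccl11, Ccl12 and Ccl8 follow each other, with log2 differences of -0.81, 0.72, 1.51, -1.29 and 3.72 in that order. In the main setting Ccl12 was thus 2.44-fold lower between a 2.84-fold higher and a 13.2-fold higher neighbour. With normexp the directions were the same, but Ccl12 was at -0.21, Ccl11 at 0.88 and Ccl8 at 2.20. In the second, Ccl5, Ccl9, Ccl6, Ccl3 and Ccl4 had -0.70, 1.13, -0.19, -0.33 and 0.24. Neighbouring genes therefore did not all share a direction in these pools. Their scanner signals do not tell whether probes of related chemokines bind each other's transcripts.

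**Figure D4:**
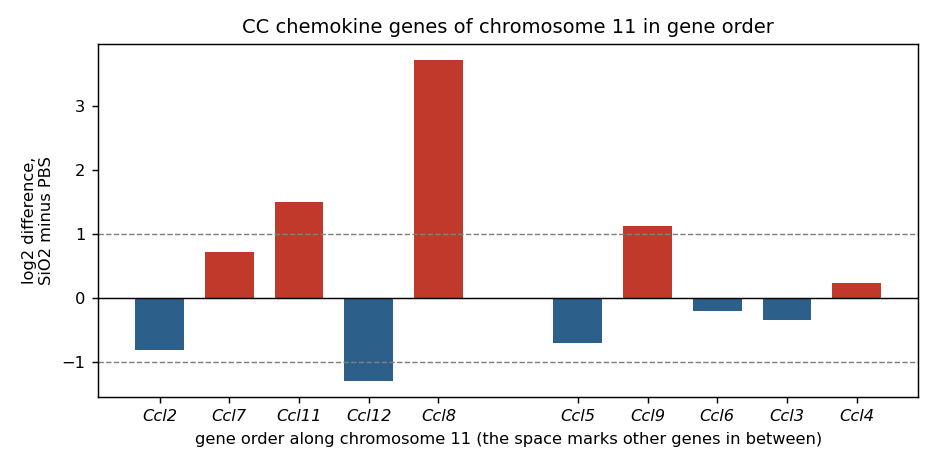
Log2 difference (SiO2 pool minus PBS pool) of the 10 CC ligand genes of chromosome 11 in gene order, red above 0 and blue below, with dashed lines at 2-fold. Both groups hold bars of either sign, and Ccl12 (-1.29) lies between Ccl11 (1.51) and Ccl8 (3.72).

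The 9 genes that differed at least 2-fold have 1 probe each, above background on both arrays, so 3 of the 8 alternatives (the mean over probes and both changes of the filter) return the same value by construction. Under the other 5, or 4 for Ccl9, which had no value in the authors' deposited table, each kept its direction. Ccl8, Ackr1 and Cxcl10 were at least 2-fold different under each of the 5, and the other 6 genes were not under at least 1.

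**Figure D5:**
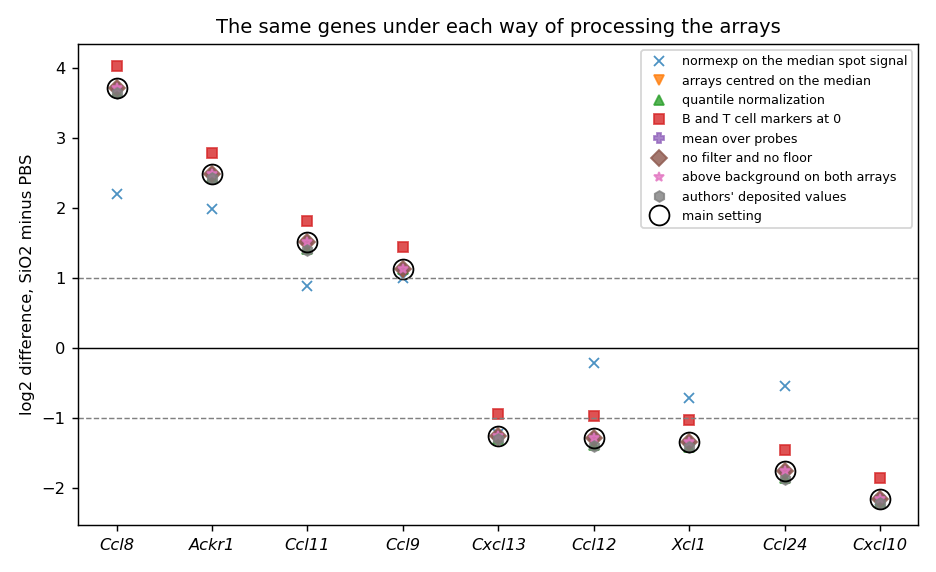
Log2 difference (SiO2 pool minus PBS pool) of the 9 genes under the main setting (open circles) and 8 alternative ways of processing the arrays (symbols), of which 3 equal the main setting for these genes by construction, with dashed lines at 2-fold. No symbol crosses 0, and the crosses of normexp background correction lie nearest to 0 for the dim genes Ccl12 (-0.21) and Ccl24 (-0.54).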

How the data were processed

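Gene expression was measured on 2 Agilent arrays with 1 dye, Cy3. Each deposited scanner file gives a linear intensity per spot, background-subtracted by Agilent Feature Extraction 11.0.1.1 per the file headers; version 9.1 stands in the submitters' processing notes. The deposited series matrix has log2 values, and how the authors normalized them is not stated in the sources used here. Against the scanner values over probes above background, its columns had slopes of 1.01 (SiO2) and 0.994 (PBS), so its scale is log2 and its sign that of the signal, and its column medians were 5.68 in both.

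Outlier flags removed 148 spots on the SiO2 array and 145 on the PBS array, of 43020 each, and none was saturated. Of these, 74.9% (SiO2) and 75.5% (PBS) were well above background, and the 75th percentile was a signal of 469 (SiO2) and 670 (PBS). Spots of a probe were averaged on the log2 scale. Probes were named by unversioned accession through the RefSeq table of GRCm38.p6, which was used for names, gene order and promoters. Of 39398 probes, 69.1% had 1 symbol. Of the probes well above background on either array, the brightest stood for a gene, and an undetected value below the lowest detected one was raised to it. Normexp (offset 50) and quantile normalization used limma 3.58.1 in R 4.3.3, and the remaining steps Python 3.11.15. The fold calculation was tested on simulated data. The number of arrays limits the precision.

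The genes, roles, pairs, marker lists and named genes were chosen with earlier results of these data known. All 43 genes are accounted for, and of other lists at most 3 genes are named beside the receptors of the pairs. Of the 11 promoter patterns searched, all are reported; 10 were counted first, and the NF-kB form shown in capitals was added after their counts had been seen. Protein sequences planned for the genes with the largest differences are not used here. The lists and pairs do not hold every chemokine receptor, and some are not reported here.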

Additional observations from a re-analysis of the deposited data

How the results depend on the processing

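No paired analysis was possible because each group is 1 array, and for the same reason no replicate could be left out. The planned normexp setting was to use mean spot signals; the median spot signal was used in its place, a choice made after seeing the files. With it, 2 chemokine genes were at least 2-fold higher (Ccl8 and Ackr1) and 2 lower (Cxcl10 and Cxcl13), in place of 4 and 5. The median was then -0.085 over chemokine genes and -0.15 over inflammatory ligands. With B and T cell markers at a median of 0, 9 were higher and 3 lower, and the medians were 0.14 over chemokine genes, -0.23 over inflammatory and -0.24 over homeostatic ligands. In the authors' deposited table, which held 28 of the 38 genes, the medians were -0.26, -0.75 and -0.41 in the same order. The inflammatory median was -0.63 with quantile normalization and -0.33 with no filter and no floor, where Cxcl2 and Cxcl3 add values that are not above background. The homeostatic median was -0.38 with the mean over probes. With B and T cell markers at 0 the shift is by construction, since a constant of -0.31 was subtracted from every log2 difference. Normexp adds an offset of 50 to every signal, which by arithmetic brings a dim gene's signals in both pools closer in ratio. How much of the normexp shift this offset accounts for was not tested. The cause of the shift with quantile normalization was not tested either.

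Over all named genes, 655 were higher and 259 lower with normexp, 2090 and 301 with B and T cell markers at 0, and 666 and 530 of 12132 in the authors' deposited table, in place of 1110 and 619 of 16774. The median over all genes was 0.18 with normexp and 0.34 with B and T cell markers at 0. No gene that differed at least 2-fold changed sign under the 5 settings that could move it, 7 of the 29 others did under at least 1 alternative, and 6 of the 29 passed 2-fold under at least 1. Signal over background limits the dimmest genes, Ccl17, Ccl22 and Ccr4.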

Other observations

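Of 19 genes that act downstream of chemokine receptors, 2 were higher in the SiO2 pool by 2-fold or more and 1 was lower. Of all genes above background, 6.62% were higher and 3.69% lower by that much, so the counts are not read as a change of the pathway. The median log2 difference of the 19 was -0.10. Arrb1, an arrestin that ends receptor signalling, was 2.27-fold higher, and Rgs13, a regulator of G protein signalling in germinal centre B cells, 2.16-fold higher. Elmo1, which couples chemokine receptors to cell movement, was 2.70-fold lower, with signals before scaling of 17.1 in SiO2 and 65.8 in PBS. The platelet chemokines Pf4 and Ppbp, which are not among the 43 genes, had log2 differences of -0.53 and -0.35 with errors of 0.20, beside a median of -0.29 over 7 platelet genes.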
